A study of Mus musculus with 12 samples.

Results

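Photoreceptor ribbon synapse genes were followed in the retina of 3 mouse models of inherited retinal degeneration and in wild-type retina. The group holds 10 of the 32867 genes in the deposited table, matched by gene name: Ctbp2, Bsn, Pclo, Cabp4, Unc119, Cplx3, Cplx4, Stx3, Slc17a7 and Lrit1. Whole-retina RNA came from C3H wild-type mice, from Pde6b rd1 mice at postnatal day 13, from Pde6b rd10 mice at day 23 and from Prph rd2 mice at day 29, with 3 samples in each group. Pde6b rd1 carries a retroviral insertion and Pde6b rd10 a point mutation in the gene for the beta subunit of rod phosphodiesterase 6, and Prph rd2 carries a mutated peripherin 2, a structural protein of photoreceptor outer segment discs. The 3 C3H samples are labelled day 13, 23 and 29, 1 sample each, and each model was compared with all 3. The methods place Pde6b rd1 and Prph rd2 on C3H and Pde6b rd10 on C57Bl6/J, whereas the label of Prph rd2 gives C57BL6/J. Animals of either sex were used, and nothing in the labels says whether the 3 samples of a model came from separate animals, so p-values measure the spread between samples.

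Rods and cones release glutamate tonically in darkness, and light lowers that release. Their terminals hold a synaptic ribbon, a plate built mainly from the protein RIBEYE, which tethers vesicles beside L-type calcium channels. Bassoon and piccolo organise the active zone, syntaxin 3 and the retinal complexins act in vesicle fusion, and bipolar and horizontal cell processes receive the transmitter. Several of these proteins also serve bipolar or amacrine cell synapses. In RNA of whole retina, fewer photoreceptors and less RNA per photoreceptor cannot be told apart.

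Where the transcripts start matters for reading the first of these genes. Ctbp2 (GRCm38 chr7:132987563-133124354, minus strand) encodes both RIBEYE and CtBP2, a nuclear corepressor, from different starts. The annotation gives 988 codons to the RIBEYE transcript, which starts at 133015248, and 445 codons to a CtBP2 transcript that starts at 133123367. Reads were counted per gene, so the Ctbp2 values join the products. RefSeq promoter sequence (GRCm38.p6) was held for 8 of the 10 genes, at 11 starts. It is shown for the RIBEYE start (chr7:133015248-133015497, minus strand), for a start of Unc119 (chr11:78345334-78345583, plus strand), for Lrit1 (chr14:37054580-37054829, plus strand) and for Slc17a7 (chr7:45163671-45163920, plus strand), the last as the gene with the largest change. Each is the 250 bases before the start that RefSeq gives, which can differ from the start in the GENCODE annotation used for the transcripts and genes (133015247 in RefSeq for RIBEYE), and capitals mark TAATCC or its complement GGATTA, the core bound by the photoreceptor factors CRX and OTX2, and TGCTGA or its complement TCAGCA, part of the element bound by the rod factor NRL.

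Ctbp2, RIBEYE start: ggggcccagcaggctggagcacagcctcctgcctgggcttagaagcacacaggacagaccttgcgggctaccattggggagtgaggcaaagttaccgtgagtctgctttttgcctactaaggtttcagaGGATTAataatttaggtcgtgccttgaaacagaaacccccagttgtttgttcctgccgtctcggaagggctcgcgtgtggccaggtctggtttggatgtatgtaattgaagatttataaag

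Unc119, start at 78345584: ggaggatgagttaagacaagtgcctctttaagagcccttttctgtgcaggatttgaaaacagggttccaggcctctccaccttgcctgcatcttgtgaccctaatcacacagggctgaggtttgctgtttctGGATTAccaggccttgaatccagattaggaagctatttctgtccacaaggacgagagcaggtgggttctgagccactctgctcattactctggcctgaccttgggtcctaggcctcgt

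Lrit1: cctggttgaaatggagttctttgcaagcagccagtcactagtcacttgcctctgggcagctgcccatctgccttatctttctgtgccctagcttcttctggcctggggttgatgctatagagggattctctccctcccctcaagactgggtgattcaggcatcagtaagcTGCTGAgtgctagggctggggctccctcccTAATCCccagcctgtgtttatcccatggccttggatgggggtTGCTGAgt

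Slc17a7: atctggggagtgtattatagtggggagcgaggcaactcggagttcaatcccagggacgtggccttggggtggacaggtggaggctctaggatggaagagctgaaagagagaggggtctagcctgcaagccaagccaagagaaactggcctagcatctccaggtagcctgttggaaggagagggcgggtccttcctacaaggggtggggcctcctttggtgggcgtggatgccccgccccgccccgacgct

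GGATTA lay 121 bases before the RIBEYE start and 118 bases before the Unc119 start shown. Lrit1 held TAATCC at 50 bases and TGCTGA at 80 and at 8 bases before its start, and the Slc17a7 window held none of the letters searched. On both strands, TAATCC was found at 3 of the 11 starts, against 6.25% of 32851 RefSeq promoters, and TGCTGA at 3 of the 11, against 16.1%. The 3 starts with TAATCC are those shown for RIBEYE, Unc119 and Lrit1. Unc119 also had RefSeq starts at 78343495 and 78346710. The first of these, near the annotated gene start at 78343482, held neither string, and the second held TCAGCA. A match is a string of letters and no evidence of binding.

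Between 17049495 and 24755890 reads per sample fell on genes, and the 10 genes had between 714 and 32983 reads in each sample. Replicate pairs differed by more than sampling noise in every group, with a chi-square per degree of freedom from 1.72 to 10.9, the highest in Prph rd2. The 7 markers of rods and 8 each of cones, bipolar cells and amacrine cells were all above 0 in every sample. Pde6b itself stood at 241 to 245 FPKM in C3H and 56.7 to 57.6 in Pde6b rd1. FPKM are reads scaled for the length of the gene and the depth of the sample. Xist, the RNA of the inactive X chromosome, was at 0.0209 to 0.0281 FPKM in C3H and from 39.97 to 223 FPKM in the models, so sex moved with group. Age, strain and sex cannot be told apart from genotype where they differ between groups. The GC content of genes also moved with the fold changes: in Pde6b rd1 against C3H the 25% of genes lowest in GC had a median log2 fold change of 0.12 and the 25% highest in GC -0.10.

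In C3H the levels per length ran from Unc119 at 305 ± 11.2 FPKM (SD, n = 3) and Slc17a7 at 255 ± 7.54 (SD, n = 3) down to Bsn at 18.3 ± 0.855 (SD, n = 3) and Pclo at 12.6 ± 0.364 (SD, n = 3). Cplx4 at 141 ± 2.53, Lrit1 at 120 ± 1.37, Stx3 at 104 ± 1.10, Cplx3 at 78.1 ± 3.45, Ctbp2 at 67.0 ± 0.801 and Cabp4 at 49.9 ± 2.62 FPKM lay between them (SD, n = 3 each). No neighbours in that order overlapped in their C3H samples. The C3H samples of the 3 labelled days were close, with the highest 1.02 to 1.10 times the lowest in each of the 10 genes. Over all genes, C3H pairs of different labelled days had a chi-square per degree of freedom of 1.75 to 2.94. Pairs of Pde6b rd1, all of the same labelled day, had 1.72 to 3.50. An effect of age in C3H was not tested. In summed FPKM, the 10 genes made up 1131 to 1178 in C3H, 797 to 812 in Pde6b rd1, 964 to 1034 in Pde6b rd10 and 939 to 1006 in Prph rd2.

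**Figure D1:**
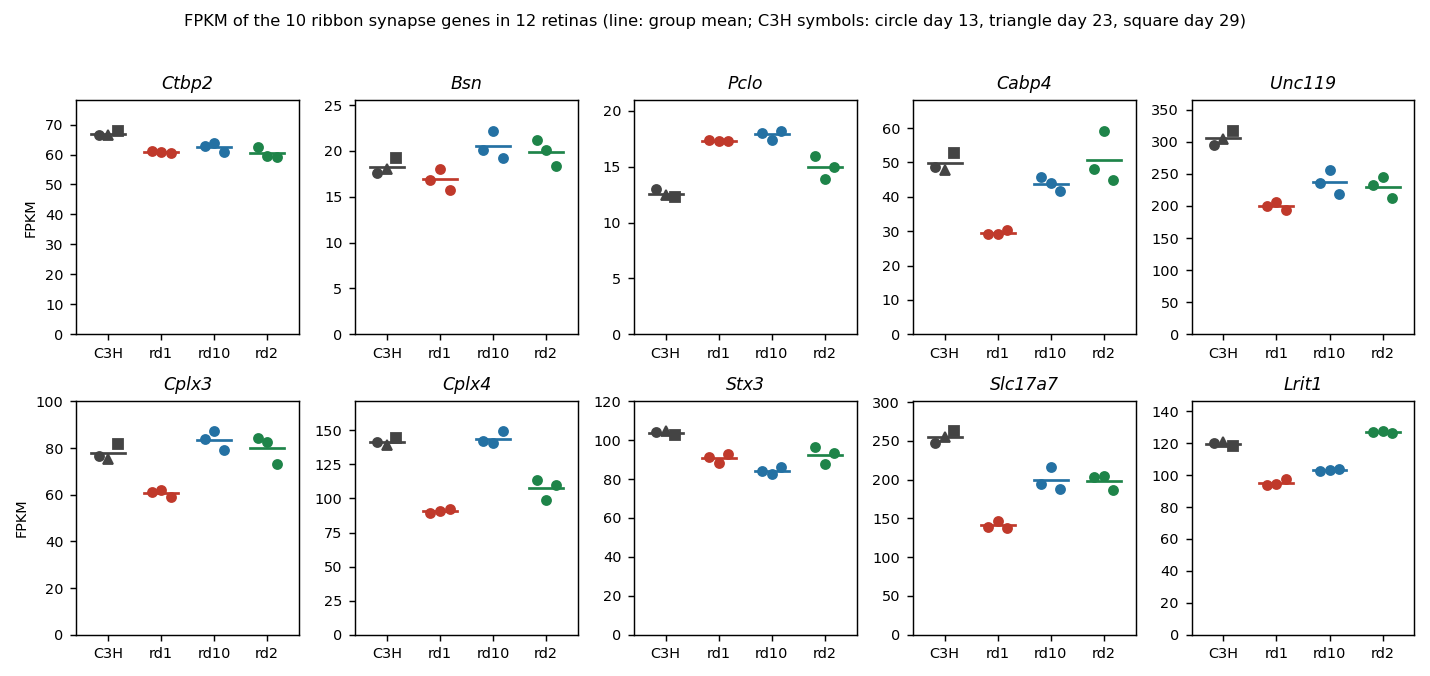
FPKM of each ribbon synapse gene (y axis, from 0) in every sample of the 4 groups (x axis); a line marks the group mean, and the C3H symbols give the labelled day. The 3 Pde6b rd1 samples lie below all C3H samples in 8 of the 10 genes, and above them in Pclo.

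In Pde6b rd1, compared with wild type to find which synaptic transcripts differ during the degeneration, 9 of the 10 genes fell and 1 rose at an adjusted p under 0.05. Over all 18310 genes tested, 21.3% fell and 21.9% rose by that rule. With a change of at least 1.5-fold and an unadjusted p under 0.05, the rule for a called gene, 4 of the 10 were called lower, against 6.03% of all genes. These were Slc17a7, the vesicular glutamate transporter VGLUT1 that fills the vesicles, Cabp4, a calcium-binding modulator of the photoreceptor calcium channel, Cplx4, a retinal complexin, and Unc119, a lipid-binding trafficking protein enriched in photoreceptors. The median log2 fold change of the 10 genes was -0.42, beside -0.01 for all genes. FPKM did not overlap between the groups for 8 genes that were lower and 1 that was higher, where 18.1% and 34.4% of all genes did so.

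Slc17a7 (chr7:45163949-45176142, plus strand), the gene for VGLUT1, was at 247, 254 and 263 FPKM in the C3H samples and at 139, 146 and 138 FPKM in Pde6b rd1. The Pde6b rd1 samples were all far below the C3H samples. It was 1.90-fold lower (log2 -0.93, SE 0.029, adjusted p = 9.65e-18). Pde6b rd10 gave 194, 216 and 188 FPKM and Prph rd2 gave 203, 204 and 187 FPKM, between the other groups and overlapping each other.

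Cabp4 (chr19:4135423-4144033, minus strand), the channel modulator, was at 48.8, 47.9 and 52.8 FPKM in C3H and at 29.2, 29.3 and 30.2 FPKM in Pde6b rd1. It fell by 0.83 on the log2 scale (SE 0.050, adjusted p = 2.27e-12). In Prph rd2 its samples, at 48.1, 59.2 and 45.0 FPKM, straddled the C3H range and spread more widely than any other group of this gene. Cabp4 shares 131 of its 3518 annotated exonic bases with Gpr152 on the opposite strand. The deposited FPKM imply a Cabp4 length of 1431 bases, on which its FPKM level rests. Whether the counted bases include the shared ones is not known, and the sources used here do not state whether counting used strand. Gpr152 had 1043 to 1238 reads in C3H and 590 to 675 in Pde6b rd1, and also fell (log2 -0.76, SE 0.053, adjusted p = 3.42e-11), and its part in the Cabp4 count was not tested.

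Cplx4, which binds the SNARE complexes that drive fusion, was at 141, 139 and 144 FPKM in C3H and at 89.5, 90.6 and 92.6 FPKM in Pde6b rd1. Its log2 fold change was -0.71 (SE 0.033, adjusted p = 1.91e-14). In Pde6b rd10 the samples, at 142, 140 and 149 FPKM, overlapped C3H, while those of Prph rd2, at 114, 99.1 and 110 FPKM, lay below C3H and above Pde6b rd1.

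Unc119 (chr11:78343482-78349164, plus strand), the most abundant of the 10 in C3H, was at 295, 304 and 317 FPKM there and at 200, 205 and 193 FPKM in Pde6b rd1. Its log2 fold change was -0.69 (SE 0.031, adjusted p = 1.16e-14). All 9 model samples lay below the C3H samples, with 218 to 257 FPKM in Pde6b rd10 and 212 to 245 FPKM in Prph rd2. Its transcript has a GC content of 59.7%, and with offsets corrected for GC the log2 fold change in Pde6b rd1 was -0.57, just under 1.5-fold, with the direction and adjusted significance kept.

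The other genes of the terminal changed by less than 1.5-fold in Pde6b rd1. Cplx3, the other retinal complexin, fell from 75.4 to 82.0 FPKM in C3H to 59.2 to 62.2 FPKM (log2 -0.43, SE 0.036, adjusted p = 8.16e-10). Lrit1, a leucine-rich transmembrane protein of the photoreceptor synapse, fell from 118 to 121 FPKM to 94.1 to 97.4 FPKM (log2 -0.40, SE 0.029, adjusted p = 4.59e-11). Stx3, the target SNARE of ribbon synapses, fell from 103 to 105 FPKM to 88.1 to 92.8 FPKM (log2 -0.27, SE 0.029, adjusted p = 5.61e-08). In each of these 3 the samples of the groups did not overlap.

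The ribbon gene Ctbp2 and the active zone gene Bsn had the smallest changes in Pde6b rd1. Ctbp2 stood at 66.4 to 67.9 FPKM in C3H and 60.4 to 61.3 FPKM in Pde6b rd1 (log2 -0.21, SE 0.029, adjusted p = 1.74e-06). Bsn, the gene for bassoon (chr9:108096022-108190384, minus strand), was at 17.6, 18.04 and 19.2 FPKM in C3H and at 16.9, 18.03 and 15.8 FPKM in Pde6b rd1, with ranges that overlapped (log2 -0.19, SE 0.041, adjusted p = 5.64e-04). With offsets corrected for GC these falls shrank to -0.12 for Ctbp2 and -0.08 for Bsn, at adjusted p of 3.30e-05 and 0.00892. Against the C3H sample of day 13 alone, Bsn was at -0.13 with an adjusted p of 0.115, and by limma on log2(FPKM + 1) at -0.11 with an adjusted p of 0.143.

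Pclo (chr5:14514918-14863459, plus strand), the gene for piccolo and its short ribbon form, rose in all 3 models. It was at 13.0, 12.5 and 12.3 FPKM in C3H, at 17.4, 17.3 and 17.3 FPKM in Pde6b rd1, at 18.03, 17.4 and 18.2 FPKM in Pde6b rd10 and at 15.9, 13.9 and 14.9 FPKM in Prph rd2. Every model sample lay above every C3H sample. The log2 fold changes were 0.39 in Pde6b rd1 (SE 0.030, adjusted p = 1.96e-10), 0.45 in Pde6b rd10 (SE 0.036, adjusted p = 1.16e-09) and 0.22 in Prph rd2 (SE 0.055, adjusted p = 0.0228). These comparisons share the C3H samples. Against the C3H sample of the same labelled day alone, the adjusted p in Prph rd2 was 0.312. The Prph rd2 rise of Pclo also missed the threshold without C3H replicate 1, 2 or 3, with the lowest of the 3 adjusted p at 0.0533, and without Prph rd2 replicate 1, at 0.0883. Pclo shares 496 exonic bases with the opposite-strand gene Gm26954, which fell in Pde6b rd1 (log2 -0.72) and rose in Pde6b rd10 (log2 0.34). In each sample bassoon transcripts per length exceeded those of piccolo in C3H, with a Bsn to Pclo ratio of 1.35 to 1.57, and the ratio was 0.913 to 1.04 in Pde6b rd1, 1.06 to 1.27 in Pde6b rd10 and 1.23 to 1.45 in Prph rd2.

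**Figure D2:**
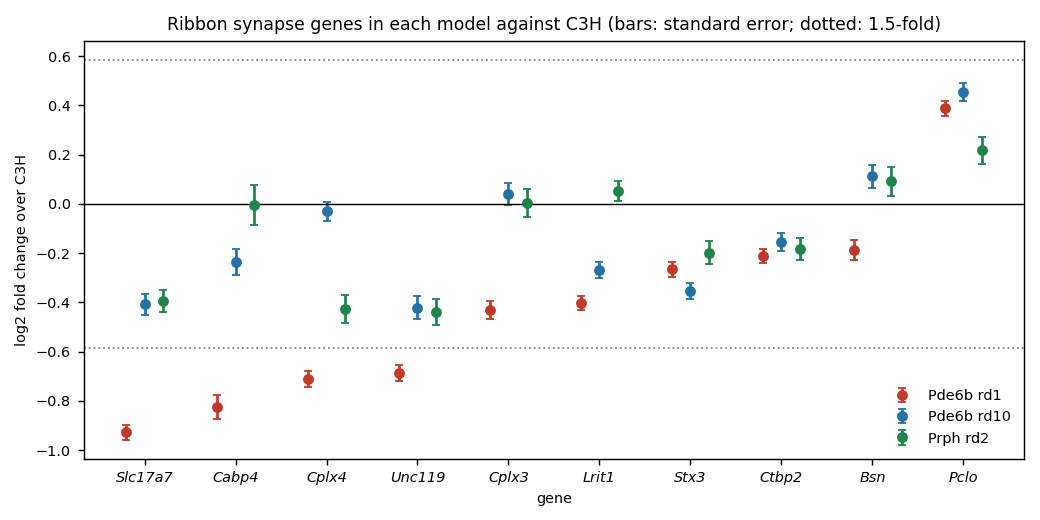
Log2 fold change over C3H (y axis) of each ribbon synapse gene (x axis, ordered by Pde6b rd1) in the 3 models, with standard errors from edgeR; dotted lines mark 1.5-fold. Only Slc17a7, Cabp4, Cplx4 and Unc119 in Pde6b rd1 pass the dotted line, and Pclo lies above 0 in all 3 models.

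In Pde6b rd10, 6 of the 10 genes fell and 1 rose at an adjusted p under 0.05, where 26.3% and 27.7% of the 18704 genes tested did so. The edgeR test called 0 of the 10 at 1.5-fold, and 8 had an unadjusted p under 0.05, as did 11014 of the 18704 genes tested. DESeq2 and limma also called 0, while 23.9% of all genes were called. The genes that fell were Unc119 (log2 -0.42, SE 0.047, adjusted p = 1.85e-07), Slc17a7 (log2 -0.41, SE 0.043, adjusted p = 9.16e-08), Stx3, Lrit1, Cabp4 and Ctbp2. Stx3 had its lowest values here, at 84.2, 82.7 and 86.3 FPKM, below all C3H samples at 104, 105 and 103 FPKM. The complexins moved little and missed the threshold, Cplx3 with a log2 fold change of 0.04 (adjusted p = 0.452) and Cplx4 with -0.03 (adjusted p = 0.520). Bsn had a log2 fold change of 0.11 (SE 0.049, adjusted p = 0.0603). With offsets corrected for GC it was 0.14, with an adjusted p of 1.01e-06, and without C3H replicate 3 or Pde6b rd10 replicate 3 the adjusted p was 0.0200 and 0.00339. Ctbp2 and Cabp4 missed an adjusted p of 0.05 against the C3H sample of day 23 alone, at 0.0953 and 0.09996. FPKM lay wholly below C3H for 6 genes and above it for 2, where 23.6% and 34.8% of all genes did so. The median log2 fold change of the 10 genes was -0.20, beside -0.0025 for all genes.

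In Prph rd2, 5 of the 10 genes fell and 1 rose at an adjusted p under 0.05, where 5.17% and 4.53% of the 18581 genes tested did so. The edgeR test called 0 at 1.5-fold, as did DESeq2 and limma, while edgeR called 4.57% of all genes. By edgeR 6 of the 10 had an unadjusted p under 0.05, as did 4415 of the 18581 genes tested. Unc119 (log2 -0.44, SE 0.053, adjusted p = 8.59e-05), Cplx4 (log2 -0.43, SE 0.056, adjusted p = 1.93e-04) and Slc17a7 (log2 -0.39, SE 0.045, adjusted p = 5.68e-05) fell most. Stx3 (log2 -0.20, adjusted p = 0.0164) and Ctbp2 (log2 -0.18, adjusted p = 0.0183) fell less, and their adjusted p was 0.423 and 0.350 against the C3H sample of day 29 alone. Without C3H replicate 1, 2 or 3 the adjusted p of Stx3 was 0.0690, 0.0879 and 0.0604, and that of Ctbp2 was 0.0687, 0.0824 and 0.105. With the replicate number as a block they were 0.0540 for Stx3 and 0.0732 for Ctbp2, and by limma on log2(FPKM + 1) 0.0728 and 0.0575. Cplx3 (log2 0.00, SE 0.058), Cabp4 (log2 -0.01, SE 0.082), Lrit1 (log2 0.05, SE 0.041) and Bsn (log2 0.09, SE 0.058) had adjusted p from 0.373 to 0.985. Lrit1 lay at 127, 127 and 127 FPKM, just above all C3H samples. Bsn had an adjusted p of 0.00898 with offsets corrected for GC, at a log2 fold change of 0.16. FPKM lay wholly below C3H for 5 genes and above it for 2, against 10.8% and 19.1% of all genes. The median of the 10 genes was -0.09, beside -0.0012 for all genes.

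The models were set against each other in 1 fit of all 12 samples, which asks whether the genes differed between degenerations at different ages. Pde6b rd10 exceeded Pde6b rd1 in 7 of the 10 genes at an adjusted p under 0.05, where 30.2% of the 19616 genes tested did so, and 2 were called higher, against 17.6%. Cplx4 was 0.71 higher on the log2 scale (SE 0.049, adjusted p = 1.45e-10) and Cabp4 0.62 higher (SE 0.079, adjusted p = 1.26e-06). Slc17a7 and Cplx3 were 0.55 and 0.50 higher. Pclo, Ctbp2 and Stx3 had adjusted p of 0.0862, 0.0628 and 0.201. The GC offsets gave 0.00843 for Pclo (log2 0.10), 0.647 for Ctbp2 (log2 -0.02) and 0.0254 for Stx3 (log2 -0.09). Stx3 also passed by limma on log2(FPKM + 1), at an adjusted p of 0.0321. With offsets corrected for GC, the Cabp4 difference was 0.55, under 1.5-fold, as it was at 0.58 without Pde6b rd10 replicate 1. Without Pde6b rd10 replicate 3, Slc17a7 was also called, at 0.59, and Ctbp2 had an adjusted p of 0.0447.

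Prph rd2 exceeded Pde6b rd1 in 7 of the 10 genes, against 21.3% of all genes, and was lower in Pclo (log2 -0.15, adjusted p = 0.0111), against 18.5%. Cabp4 was the 1 gene called, 0.84 higher on the log2 scale (SE 0.078, adjusted p = 3.23e-08), where 8.21% of all genes were called higher. Without Prph rd2 replicate 3, Slc17a7 was called too, at 0.60. Without Prph rd2 replicate 2 the adjusted p of Pclo was 0.0629 and that of Stx3 0.00873, against 0.0806 with all samples. Lrit1, which had overlapping samples in no pair of these groups, was 0.48 higher than in Pde6b rd1 and 0.32 higher than in Pde6b rd10. Between Prph rd2 and Pde6b rd10, 3 genes were higher (21.3% of all) and 2 lower (22.6% of all), and edgeR called 0 at 1.5-fold, as did DESeq2 and limma, against 19.7% of all genes. Cplx4 was 0.40 lower in Prph rd2 (adjusted p = 8.80e-07), whereas Slc17a7, Unc119, Bsn, Cplx3 and Ctbp2 had adjusted p from 0.520 to 0.870. Cabp4 was 0.23 higher (adjusted p = 0.0169), but missed the threshold without Prph rd2 replicate 2, at 0.147, and without Pde6b rd10 replicate 3, at 0.0692. Against Pde6b rd1, the overlap partner of Cabp4, Gpr152, was 1.03 higher in Pde6b rd10 on the log2 scale and 0.64 higher in Prph rd2.

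**Figure D3:**
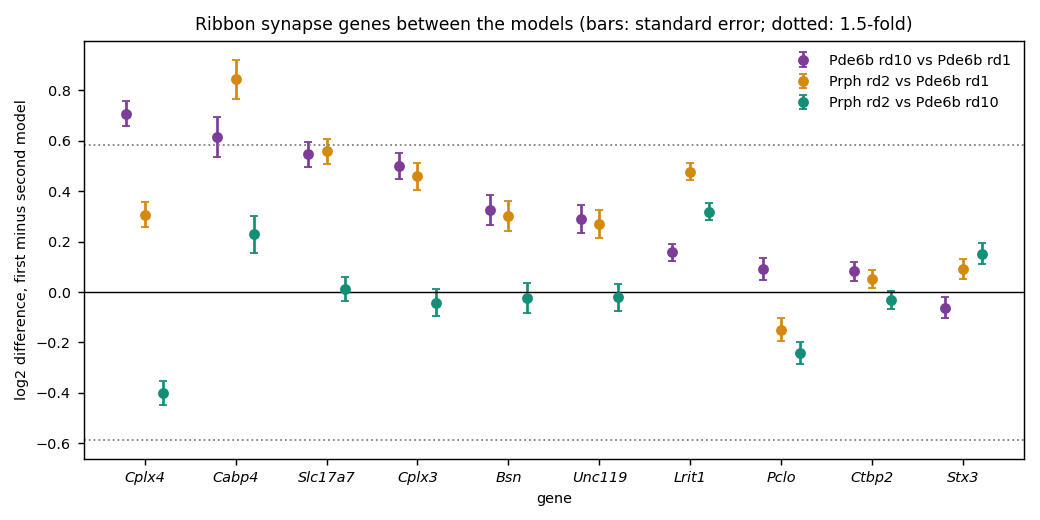
Log2 difference between 2 models (y axis, first minus second) for each ribbon synapse gene (x axis), with standard errors from edgeR; dotted lines mark 1.5-fold. Cplx4 lies at 0.71 for Pde6b rd10 against Pde6b rd1 and at -0.40 for Prph rd2 against Pde6b rd10, and Cabp4 at 0.84 for Prph rd2 against Pde6b rd1.

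Ribbon synapse genes were also set against related genes within each sample, and the ratios moved in both directions. The vesicular transporters Slc17a7 and Slc17a6, the latter used by ganglion cells, stood in a FPKM ratio of 11.4 to 13.0 in C3H, 7.49 to 8.55 in Pde6b rd1, 9.08 to 11.6 in Pde6b rd10 and 8.10 to 9.58 in Prph rd2. Unc119 exceeded its widely expressed relative Unc119b 34.0 to 38.3 times in C3H and 17.2 to 20.1 times in Pde6b rd1. In both pairs the Pde6b rd1 samples lay below every C3H sample. The ratio of Lrit1 to its relative Lrit2 was higher in Pde6b rd1, at 2.49 to 2.72 against 1.97 to 2.04 in C3H, as was that of Lrit1 to Lrit3, at 3.34 to 3.66 against 2.91 to 3.12.

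Ratios among the complexins also differed between groups. Cplx3 exceeded Cplx2, a complexin of conventional synapses, by a ratio of 1.26 to 1.32 in C3H and 1.59 to 1.66 in Pde6b rd10, but lay under it in Pde6b rd1, at 0.858 to 0.886. Cplx1, the other conventional complexin, fell in Pde6b rd1 (log2 -0.68, adjusted p = 3.9e-11) while Cplx2 rose (log2 0.15, adjusted p = 4.1e-04). The Cplx3 to Cplx1 ratio was higher in Pde6b rd1, at 2.17 ± 0.0664 against 1.83 ± 0.0506 in C3H (SD, n = 3 each), while the Cplx4 to Cplx1 ratio, at 3.20 to 3.28, lay within the C3H range of 3.12 to 3.46. The Cplx4 to Cplx3 ratio averaged 1.81 ± 0.0492 in wild type and 1.35 ± 0.149 in Prph rd2, with Pde6b rd1 at 1.49 ± 0.0604 and Pde6b rd10 at 1.73 ± 0.144 (SD, n = 3 each), and the samples of Prph rd2 overlapped those of Pde6b rd1.

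**Figure D4:**
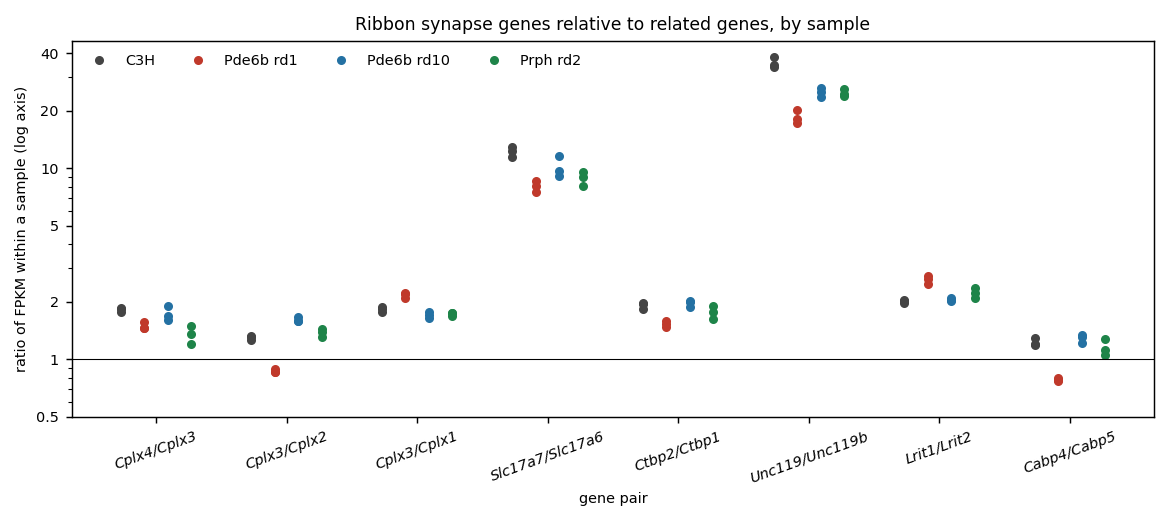
Ratio of FPKM within each sample (y axis, log scale) for 8 pairs of a ribbon synapse gene and a related gene (x axis), coloured by group; each point is a sample. In Pde6b rd1 the ratios Cplx3/Cplx2 and Cabp4/Cabp5 lie under 1, at 0.858 to 0.886 and 0.769 to 0.793, and in the other groups above it. Where a ratio stands against 1 depends on the gene lengths used for FPKM.

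Other genes of the same synapse were read from lists of its parts. Of all genes tested, 21.3% fell and 21.9% rose in Pde6b rd1 at an adjusted p under 0.05, and 6.03% were called lower. At that adjusted p 26.3% fell and 27.7% rose in Pde6b rd10, and 5.17% and 4.53% in Prph rd2. These shares stand beside each list below. Of 9 active zone and calcium channel genes, 1 was called lower in Pde6b rd1: Cacna1f, the pore of the photoreceptor calcium channel that Cabp4 modulates (log2 -0.72, adjusted p = 6.9e-14). At an adjusted p under 0.05, 5 of the 9 fell and 3 rose, with a median of -0.14. The ELKS proteins Erc1 and Erc2 were among those that rose (log2 0.18 and 0.23). In Pde6b rd10 the same 2 genes fell (log2 -0.41 and -0.45), as did Rims1, an active zone organiser (log2 -0.51), and 6 fell and 1 rose in all, with a median of -0.21. In Prph rd2, 3 fell and 1 rose, with a median of -0.05.

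Of 11 genes of vesicle fusion and recycling, 10 fell in Pde6b rd1 at an adjusted p under 0.05 and 0 were called at 1.5-fold, with a median of -0.30. Dnm1, the dynamin that pinches off endocytic vesicles (log2 -0.57), and Nsf, which takes SNARE complexes apart (log2 -0.55), were lowest, and Amph was near 0 (log2 -0.02, adjusted p = 0.70). In Pde6b rd10, 4 fell and 2 rose, Dnm1 among the latter (log2 0.28), with a median of -0.06. In Prph rd2 the edgeR test passed 0 of the 11 at an adjusted p under 0.05, with a median of -0.02. It passed 2 at an unadjusted p under 0.05, where 4415 of all 18581 genes tested passed.

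Of 8 genes of the terminal scaffold and the cleft, 7 fell and 1 rose in Pde6b rd1, 0 of them called, with a median of -0.20. In Pde6b rd10, 3 were called lower, where 8.08% of all genes were. Elfn1, the trans-synaptic adhesion protein of rods, fell most (log2 -0.85, adjusted p = 2.9e-11). The others were Slc1a7, the glutamate transporter and chloride channel of photoreceptor terminals (log2 -0.69), and Egflam, the matrix protein pikachurin (log2 -0.65). All 3 fell in Prph rd2 by less (log2 -0.31, -0.18 and -0.24), where 5 of the 8 fell, with a median of -0.17. On the postsynaptic side, all 9 genes of the ON bipolar dendrite fell in Pde6b rd1, with a median of -0.36 and 1 called lower, Lrit3 (log2 -0.62). In Pde6b rd10, 4 of the 9 fell and 2 rose, with a median of -0.08. Grm6, the glutamate receptor that faces the ribbon, was lowest there (log2 -0.52), and the regulators of G protein signalling Rgs11 and Rgs7 rose (log2 0.49 and 0.39). In Prph rd2, 0 fell and 1 rose, Nyx (log2 0.25), with a median of 0.02. By edgeR 5 of the 9 had an unadjusted p under 0.05, where 4415 of all 18581 genes tested did. Grm6 had a log2 fold change of -0.17 in Pde6b rd1 and an adjusted p of 0.89 in Prph rd2.

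Cell type markers also differed between the groups. The 7 rod markers summed to 2624 to 2769 FPKM in C3H, 1421 to 1458 in Pde6b rd1, 2001 to 2146 in Pde6b rd10 and 1966 to 2110.2 in Prph rd2. In the same order Gnat1 alone averaged 1046, 282, 1043 and 826 FPKM. Sag, Nrl, Cnga1, Gngt1 and Nr2e3 averaged lower in Pde6b rd10 than in Pde6b rd1, and Gnat1 and Rom1 higher. Cone markers summed to 206 to 210, 151 to 155, 299 to 302 and 216 to 223 FPKM in the order of the rod sums. Bipolar markers, at 324 to 335, 422 to 427, 277 to 280 and 314 to 328 FPKM, were highest in Pde6b rd1. The cone marker Gngt2 went against the cone sums, at a log2 fold change of 0.95 in Pde6b rd1 and -0.95 in Pde6b rd10. At an adjusted p under 0.05 the other 7 cone markers fell in Pde6b rd1 and rose in Pde6b rd10. Of all genes, 21.3% fell in the first and 27.7% rose in the second.

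Among the 7 rod markers 6 fell and 1 rose in Pde6b rd1 at an adjusted p under 0.05, where 21.3% and 21.9% of all genes did so. They ran from Gnat1 at a log2 fold change of -1.96 to Nr2e3 at 0.08, with a median of -0.64. In Pde6b rd10 Gnat1 stood at -0.06 and Nr2e3 at -1.25, with a median of -0.87. In Prph rd2 all 7 fell, against 5.17% of all genes, with a median of -0.37. The 8 cone markers had medians of -0.65, 0.53 and -0.09 in the 3 models, bipolar markers 0.25, -0.38 and -0.10, and amacrine markers -0.40, -0.0034 and 0.13. Mueller glia markers summed to 983 to 1014 FPKM in C3H and 558 to 565 in Pde6b rd1, and microglia markers to 42.9 to 43.8 FPKM in C3H and 114 to 126 in Pde6b rd10. In Pde6b rd1, Pde6b rd10 and Prph rd2, ganglion cell markers had medians of -0.41, -0.31 and -0.10, and Mueller glia markers -0.53, 0.06 and 0.10. The part of these shifts in the changes of the ribbon synapse genes was not tested.

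**Figure D5:**
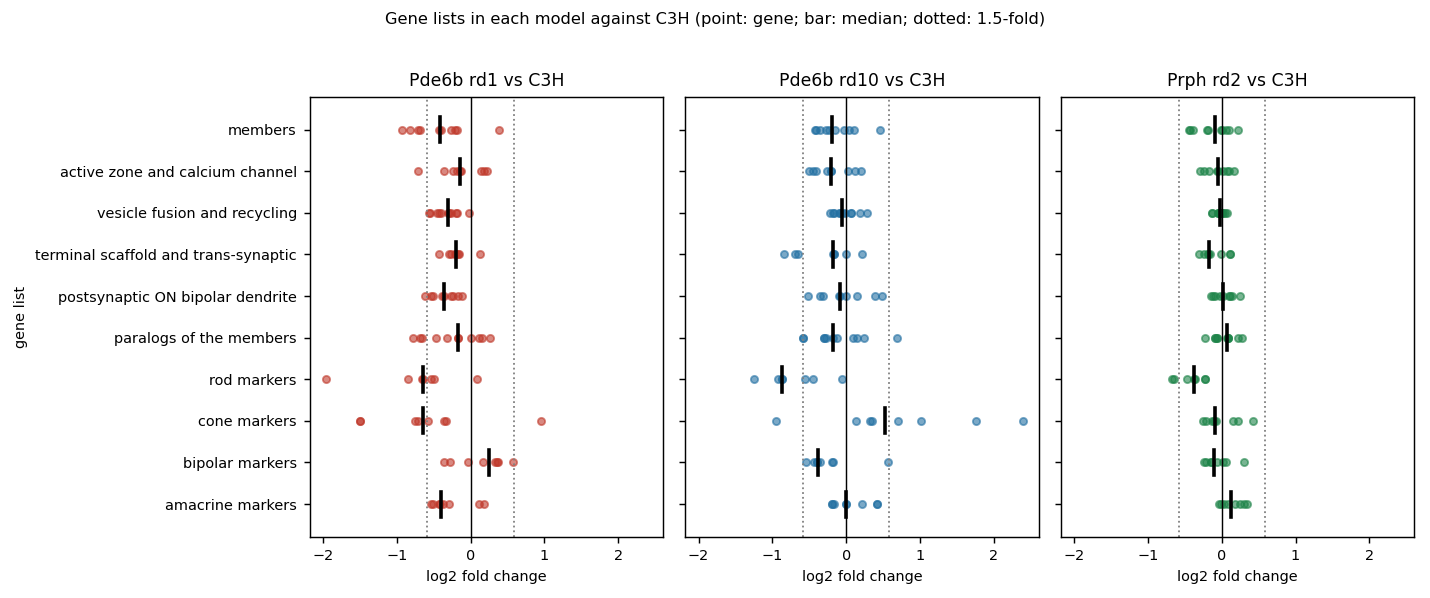
Log2 fold change over C3H (x axis) of each gene of the ribbon synapse group, of 5 related lists and of 4 cell type marker lists (y axis) in the 3 models; bars mark medians and dotted lines 1.5-fold. In Pde6b rd1 the ribbon synapse genes have a median of -0.42, beside -0.64 for rod, -0.65 for cone and -0.40 for amacrine markers. The genes of the ON bipolar dendrite have -0.36, active zone genes -0.14 and bipolar markers 0.25.

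The genes varied together in subsets over the 12 samples. Unc119 and Slc17a7 had a Pearson r of 0.958 and Ctbp2 and Unc119 0.941, whereas Pclo and Stx3 had -0.831. Outside the group, among 8535 genes at a mean of at least 5 FPKM, Plcd3 (r = 0.993) was nearest to Slc17a7, Ypel2 (r = 0.993) to Cplx4, Syp, the vesicle protein synaptophysin (r = 0.975), to Cabp4, Bicdl1 (r = 0.989) to Unc119 and Pex5l (r = 0.996) to Lrit1. For the active zone genes the nearest were Ajm1 (r = 0.978) to Bsn and Gm43010 (r = 0.959) to Pclo. These are descriptions over samples that share 4 groups and their depth.

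Circular RNAs, closed by a back-splice from the end of an exon to the start of the same or an earlier exon, were counted from junction reads. Of 12510 circRNAs, 12 were assigned to 4 of the genes: 8 to Pclo with 57 reads in all, 2 to Stx3 with 4, 1 to Unc119 with 7 and 1 to Bsn with 2. All 12 together had 20 junction reads in the C3H samples, 19 in those of Pde6b rd1, 22 in those of Pde6b rd10 and 9 in those of Prph rd2, and none exceeded 7 reads in a sample. Both that were deep enough to test come from Pclo, and their junctions are printed with 20 bases on each side, capitals marking the bases after the back-splice.

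mmu_circ_0012310 (GRCm38 chr5:14539410-14540801, plus strand): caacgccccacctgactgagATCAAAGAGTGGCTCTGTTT

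mmu_circ_0012320 (GRCm38 chr5:14674955-14682387, plus strand): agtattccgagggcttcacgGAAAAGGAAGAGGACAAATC

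The first had 3, 2 and 1 junction reads in C3H, 7, 0 and 0 in Pde6b rd1, 0, 1 and 2 in Pde6b rd10 and 0 in all Prph rd2 samples. Its log2 fold change in Pde6b rd1 was 0.47 (SE 1.22, adjusted p = 0.985) and in Pde6b rd10 -1.09 (SE 1.22, adjusted p = 0.849). The second had 4, 0 and 0 reads in C3H and 3, 0 and 3 in Pde6b rd10 (log2 0.28, SE 1.31, adjusted p = 0.966). A change was not detectable at this depth. Only the first was deep enough to test in Pde6b rd1, both were in Pde6b rd10 and neither in Prph rd2. Of all circRNAs tested, 6.37% and 11.8% were called at 2-fold in Pde6b rd1 and Pde6b rd10, where 0 of these were, and 3.44% in Prph rd2, where none of these was tested.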

How the data were processed

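Retinal RNA was depleted of ribosomal RNA, made into directional libraries and sequenced on an Illumina HiSeq. The authors aligned reads to GRCm38 and counted them per gene with HTSeq 0.11.2, and these deposited counts are not normalized. The deposited FPKM values divide them by gene length and reads counted. The authors found circRNA with TopHat2 2.1.1 and CIRCexplorer, and deposited junction counts and the circRNA TPM, which was used in an alternative. Whether counting used strand is not given in the sources used here. The members and gene lists were chosen with earlier results of these data known, and 3 genes of the lists are not reported here. Samples were grouped by genotype from the labels.

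Each model was compared with C3H in R 4.3.3 with edgeR 4.0.16 (filterByExpr, TMM, quasi-likelihood test), and models with each other in a fit of 12 samples. Calls needed 1.5-fold for genes or 2-fold for circRNAs with an unadjusted p under 0.05, the latter among those with at least 2 reads in at least 3 samples. Adjusted p-values are Benjamini-Hochberg over all features tested, and the SE is the log2 fold change over the root of the F statistic. The alternatives run were limma 3.58.1 on log2 of FPKM plus 1 or 0.1, DESeq2 1.42.0, RLE size factors, no filter, other thresholds, the C3H sample of the same labelled day, all samples in 1 fit, the replicate number as a block and each replicate left out. An offset for the GC content of the longest GENCODE vM21 transcript was added after seeing the data. Between 17049495 and 24755890 reads per sample were counted, where 3 reads are 0.121 to 0.176 CPM. The steps were tested on simulated data. All 10 genes, every member of the related and marker lists and the 2 most correlated genes outside the group could be named, and Gpr152 and Gm26954 were named after seeing their overlap. Tables and figures used Python 3.11.15 and matplotlib 3.10.9.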

Additional observations from a re-analysis of the deposited data

Results flagged for a closer look

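Differences between models, tested directly in the fit of 12 samples, exceeded 1.5-fold in 3 cases, 2 of the 10 genes between Pde6b rd10 and Pde6b rd1, where 17.6% of all genes were called higher, and 1 of the 10 between Prph rd2 and Pde6b rd1, where 8.21% were. Cplx4 in Pde6b rd10 exceeded its level in Pde6b rd1 by 0.71 on the log2 scale, with all 3 samples of the first above all 3 of the second. Cabp4 exceeded its Pde6b rd1 level by 0.62 in Pde6b rd10 and by 0.84 in Prph rd2, again without overlap of the samples. The models were sampled at different ages, which cannot be told apart from genotype here.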

How the results depend on the processing

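With each replicate left out in turn, 4 genes were called in Pde6b rd1 and 0 in Pde6b rd10 and Prph rd2 against C3H, 1 to 3 between Pde6b rd10 and Pde6b rd1, 1 to 2 between Prph rd2 and Pde6b rd1, and 0 between Prph rd2 and Pde6b rd10. Without Pde6b rd10 replicate 1, Cabp4 fell out at 0.58; without replicate 3, Slc17a7 was added at 0.59, as it was at 0.60 without Prph rd2 replicate 3. At an adjusted p under 0.05 with any fold, the counts were 10, 7 and 6 against C3H and 7, 8 and 5 between models. Limma on log2 FPKM and the GC offsets each left 1 gene, Cplx4, between Pde6b rd10 and Pde6b rd1. The GC offsets, chosen after seeing the data, left 3 genes in Pde6b rd1. The replicate numbers were not taken as pairs. Correlations of same-numbered deviations ranged from -0.10 to 0.30 over all comparisons and were not all over 0.1 in any. They averaged 0.158 in Prph rd2 against Pde6b rd1 and -0.0323 in Pde6b rd10 against C3H, beside -0.0811 and 0.0162 for other pairs. A shared batch was not tested. With the replicate block the counts were 4, 0 and 0 against C3H and 2, 1 and 0 between models, as without it. No value past a threshold changed sign. Signs changed only at log2 differences near 0. Against C3H, Cplx4 in Pde6b rd10 was 0.0239 and 0.0241 by limma with 1 and 0.1 added. Cabp4 in Prph rd2 was 0.000736 without the filter, 0.0177 and 0.0178 by limma, 0.0189 with GC offsets and -0.125 to 0.0709 with a replicate left out. Cplx3 in Prph rd2 was -0.0715 against the C3H sample of the same day and -0.0390 to 0.0599 with a replicate left out. Ctbp2 was -0.0185 with GC offsets between Pde6b rd10 and Pde6b rd1, and between Prph rd2 and Pde6b rd1 -0.0132 and -0.0134 by limma and -0.00840 with GC offsets. Between Prph rd2 and Pde6b rd10, Slc17a7 was -0.00628 and -0.00630 by limma and -0.0301 to 0.0750 with a replicate left out. There, with GC offsets, Ctbp2 was 0.0101, Bsn 0.0221 and Unc119 0.0232, and with a replicate left out Bsn ran from -0.0738 to 0.0380, Unc119 from -0.0761 to 0.0409 and Cplx3 from -0.0830 to 0.0180. At most 2 circRNAs of these genes could be tested in a comparison, too few and too shallow to read stability from.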
